A study of Rattus norvegicus with 16 samples.

Results

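The genes described here encode fibronectin and the main parts of the elastic fibre: Fn1, Eln, Fbn1, Fbn2, Mfap4, Mfap5, Fbln1, Fbln2, Fbln5 and Lox. They are 10 of the 31038 genes in the deposited tables and were taken by symbol. The set was chosen partly by the measured response of Mfap5 to nerve crush, which differed between Schwann cells and whole nerve, so all values of Mfap5 are given as a description without a test, and counts of changed genes are over the other 9 members.

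RNA was sequenced from rat Schwann cells and from rat whole sciatic nerve in 16 libraries, which fall into 8 groups of 2. Both materials were taken without injury (Uncrushed) and on days 3, 5 and 7 following a crush, and the labels give an age of postnatal day 18 for every library, which per the study's methods is the age at the crush. Schwann cells were acutely purified by immunopanning, in which dissociated cells are passed over antibody-coated dishes. CD45-positive and Thy1-positive cells were first removed and the cells binding the O4 antibody, which marks the Schwann cell lineage, were kept, whereas whole nerve was extracted without dissociation. The strain was not given in the sources used here, and the uncrushed group carried no sham surgery. Each sample of purified cells came from at least 10 pooled nerves, and the tissue of crushed nerves lay beyond the injury site. Because nothing in the labels ties the 2 libraries of a group to separate animals, the p-values below measure the spread between these libraries.

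Fibronectin is a secreted glycoprotein that cells assemble into fibrils through integrins, and it is laid down in the peripheral nerve after injury. An elastic fibre has a core of crosslinked elastin inside a sheath of fibrillin microfibrils. Microfibril-associated proteins bind the fibrillins, fibulins join elastin to the microfibrils and to cells, and lysyl oxidase crosslinks elastin and collagen. In nerve, fibroblasts of the epineurium and endoneurium, perineurial cells and vessel walls are known sources of these proteins.

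Promoter sequence is shown for the pair of members whose Schwann cell RNA differed most from uncrushed at 3 days, Mfap5 and Fbln5, and it is the 250 bases before the RefSeq gene start in the assembly GRCr8. RefSeq promoters were found for 5 members. The Mfap5 window is chr4:157399669-157399918 on the plus strand, and the Fbln5 window is chr6:126742707-126742956 on the minus strand. Capitals mark the only match of the motifs searched.
Mfap5: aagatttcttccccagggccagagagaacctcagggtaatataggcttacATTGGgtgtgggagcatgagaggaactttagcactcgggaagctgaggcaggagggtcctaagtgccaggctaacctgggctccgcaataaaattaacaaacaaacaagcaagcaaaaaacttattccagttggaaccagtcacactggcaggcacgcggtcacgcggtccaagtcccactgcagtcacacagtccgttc
Fbln5: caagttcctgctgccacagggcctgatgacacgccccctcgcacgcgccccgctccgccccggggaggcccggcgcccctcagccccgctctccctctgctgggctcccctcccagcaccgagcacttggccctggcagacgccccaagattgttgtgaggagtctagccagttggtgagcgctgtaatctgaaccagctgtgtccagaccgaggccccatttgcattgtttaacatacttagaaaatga
The match in Mfap5 is a CCAAT box (CCAAT) on the reverse strand whose first base lies at position -200 from the start, a motif that 34% of the 33469 promoters of the same length hold. The TATA box (TATAAA), the AP-1 motif (TGANTCA) and the TEAD motif (GGAATG) were searched on both strands and were not in either window, and they were in 12.9%, 6.34% and 12.1% of all promoters. A match is a description of letters and not a bound site.

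Library totals lay between 10555067 and 27562637 expected counts, and no molecular identifiers were used, so count limits cover counting error only. Sox10, which marks the Schwann cell lineage, lay between 59.1 and 95.5 fragments per kilobase of gene, scaled to the fragments of the library (FPKM) in the Schwann cell libraries and between 21.5 and 52.1 FPKM in whole nerve. Replicate 2 of Schwann cells at 3 days stood apart from replicate 1, with 1.29 compared with 0.18 FPKM of the leukocyte gene Ptprc and 17.9 compared with 6.77 FPKM of the fibroblast gene Dcn, and the values of members that it moved most are also given without it. Levels are given below in FPKM, and log2 fold changes come from edgeR after TMM normalization, which sets the typical gene at no change. In whole nerve the ratio of FPKM after crush to FPKM before it lay 0.40 to 0.41 above the TMM fold change in log2, so an FPKM there can rise slightly while the gene falls relative to the typical gene. Scaling by library totals alone moved the median of all genes at 3 days in whole nerve to 0.41 and the split of calls from 3654 higher and 3558 lower to 7009 higher and 1843 lower. At 5 and 7 days it moved the split there from 2993 higher and 3089 lower to 6907 and 1596, and from 2442 higher and 2510 lower to 6825 and 1134.

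In uncrushed Schwann cells, Mfap5, which encodes the microfibril-associated glycoprotein MAGP-2, had the highest level of the 10 members, at 105 ± 14.5 FPKM (SD, n = 2), and made up 63.8% of their summed FPKM. Fbn1, which encodes the main fibrillin of the adult, came next at 32.9 FPKM, and Fbln5 and Fbln2 followed at 10.1 and 7.43 FPKM. The other 6 members lay between 0.25 FPKM for Fbn2 and 4.97 FPKM for Fn1. In uncrushed whole nerve Mfap5 was also first, at 214 ± 1.64 FPKM, ahead of Fn1 at 178 ± 14.1 FPKM and Fbn1 at 89.6 FPKM. By 3 days Fn1 was first in whole nerve, at 483 ± 17.2 FPKM. In Schwann cells its mean of 15.8 ± 7.47 FPKM was also the highest at 3 days, but this order rests on replicate 2, and in replicate 1 Fbn1 at 12.3 FPKM lay above Fn1 at 10.5 FPKM. At 7 days the means of Fbln5 and Fbn1 were the highest in Schwann cells and their order differed between the libraries, with 17.4 FPKM of Fbln5 and 14.3 of Fbn1 in replicate 1 and 12.5 and 13.9 in replicate 2. Mfap5 then made up 5.36% of the summed FPKM.

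**Figure D1:**
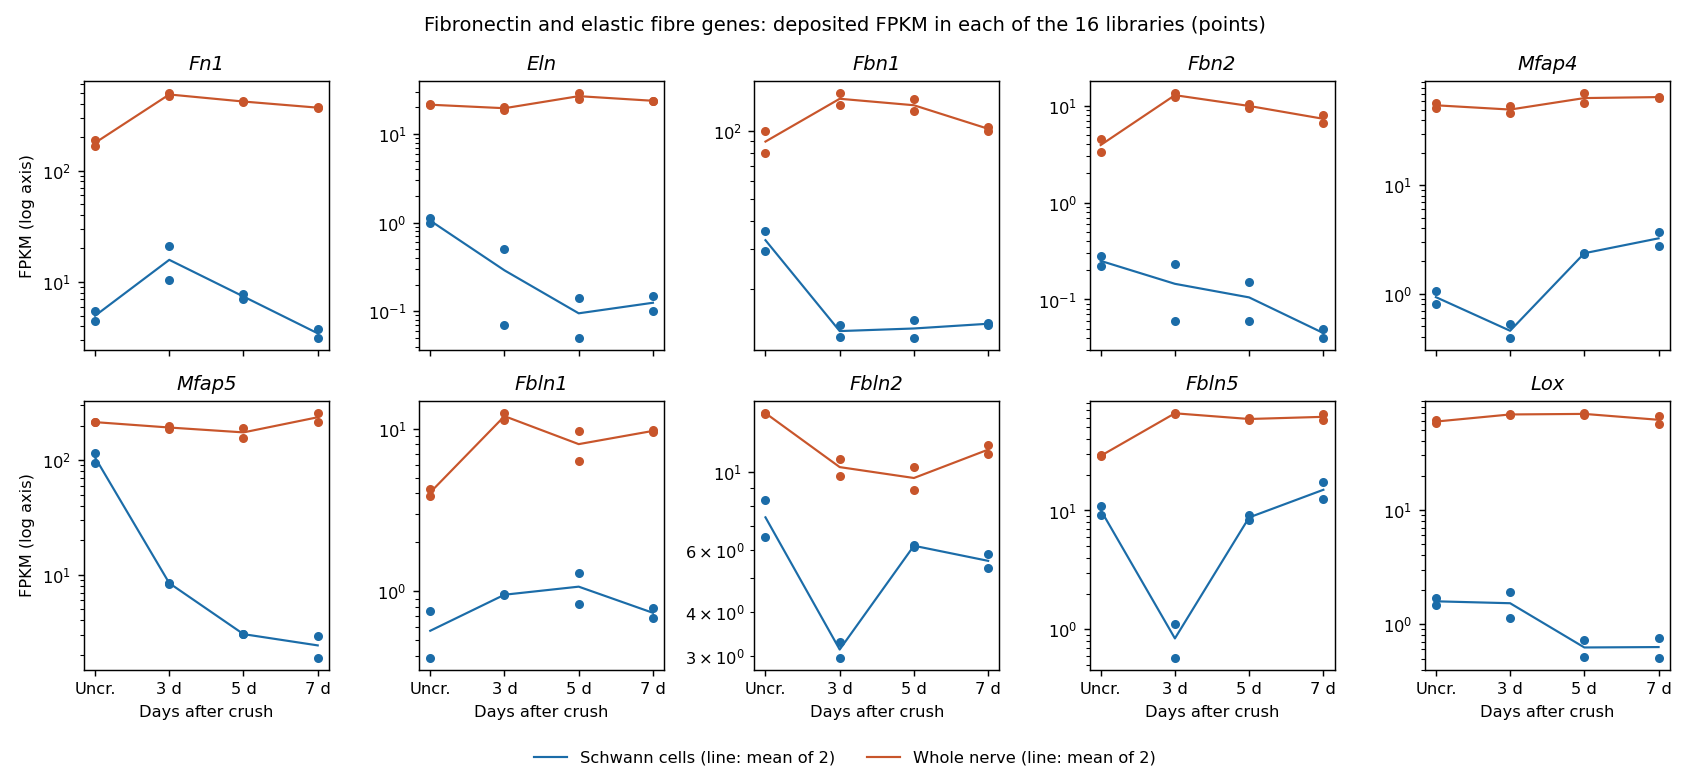
Deposited FPKM (log axis) of the 10 members against time after crush, with 1 point for each of the 16 libraries and lines through the mean of 2. Whole nerve lies above Schwann cells in every panel, the mean of Mfap5 in Schwann cells goes from 105 to 2.42 FPKM while whole nerve stays between 157 and 258 FPKM, and Fbln5 dips to 0.84 FPKM in Schwann cells at 3 days.

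Schwann cells had less RNA of all 9 tested members than whole nerve had, at each of the 4 time points, by edgeR. Of all genes 35.3% were lower in this direction in uncrushed nerve, 32.8% at 3 days, 28.4% at 5 days and 28.7% at 7 days. Library totals moved the split over all genes in uncrushed nerve from 4905 higher and 5939 lower to 6504 higher and 4544 lower, and all 9 members stayed lower. All 10 passed the filter on low counts in every fit. In bulk samples fewer cells of a type and less RNA per cell cannot be told apart, so a level in whole nerve is a sum over all its cells. In uncrushed nerve the widest log2 difference was that of Mfap4, -6.19 (SE 0.20, adjusted p = 2.11e-11), and the narrowest that of Fbln2, -1.29 (SE 0.12, adjusted p = 3.61e-07). Uncrushed Schwann cells held 50.6% of the whole nerve FPKM for Fbln2, 49.2% for Mfap5, 36.7% for Fbn1 and 35.1% for Fbln5, but 14.1% for Fbln1 and between 1.70% and 6.38% for the other 5 members. At 7 days these shares were between 0.527% for Eln and 48.3% for Fbln2, with Fbln5 at 24.4%, Fbn1 at 13.8% and Mfap5 at 1.03%.

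**Figure D2:**
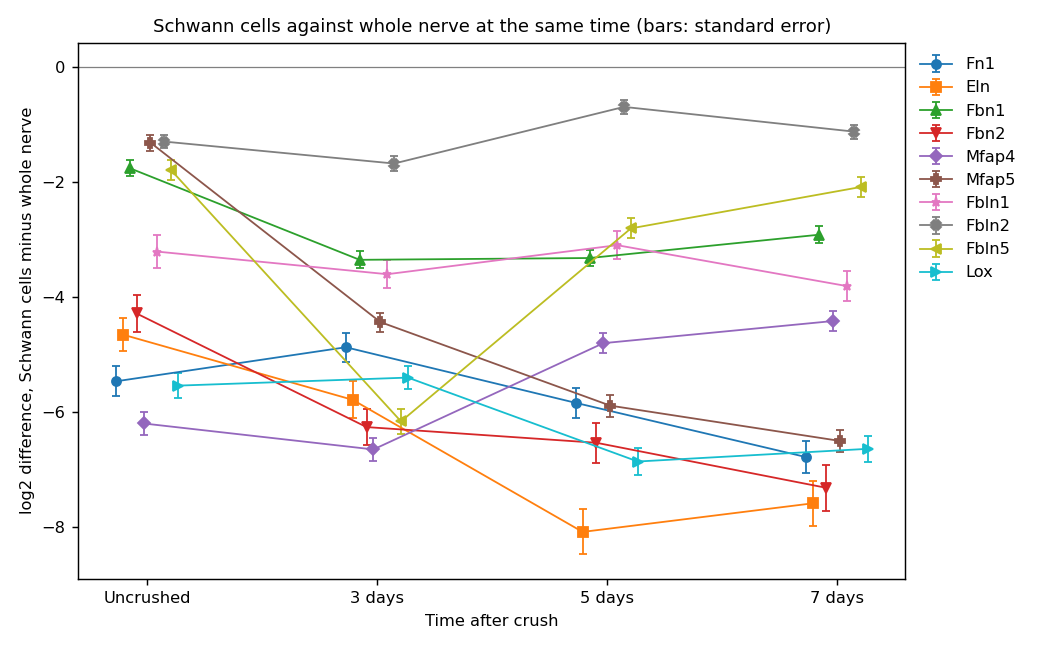
Log2 difference of Schwann cells minus whole nerve at the same time (y axis) for each member in uncrushed nerve and 3, 5 and 7 days after crush (x axis), with standard errors from edgeR. Every value is below 0, Mfap5 runs from -1.31 to -6.50, Fbln2 stays between -0.69 and -1.68, and Fbln5 falls to -6.16 at 3 days (-6.79 without replicate 2 of Schwann cells) and returns to -2.08 at 7 days.

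Markers of other cells were measured in the same libraries. Of the 10 fibroblast markers, 9 had lower values in Schwann cells than whole nerve had, without injury and on each day after crush, by edgeR. Col1a2 went the other way in uncrushed nerve and at 5 days, when it was higher in Schwann cells. The 3 collagen genes among them were present in Schwann cells, at a summed 1324 to 1574 FPKM in uncrushed and 288 to 459 FPKM in crushed libraries, and Col1a2 had at most 1.62 counts in uncrushed whole nerve, where Col1a1 and Col3a1 were high. The other 7 fibroblast markers, a split made after the values were seen, summed to 14.3 to 26.4 FPKM in uncrushed Schwann cells, 5.06 to 28.2 FPKM in crushed ones (5.06 to 11.2 without replicate 2 at 3 days, which puts the other 5 below both uncrushed ones), 2651 to 2946 FPKM in uncrushed whole nerve and 3477 to 4057 FPKM after crush, and none of the 7 was at 0 in any Schwann cell library. As a share of whole nerve these 7 stood at 0.727% in uncrushed Schwann cells and at 0.544%, 0.230% and 0.217% at 3, 5 and 7 days. These values were below the share of every member at those times. The share at 3 days rested mostly on replicate 2, which summed to 28.2 FPKM beside 10.1 in replicate 1. The 3 collagens stood at 36.6%, 9.05%, 8.97% and 10.6%, above the shares of most members. Col1a2 is part of these sums, at 83.7 and 82.8 FPKM in Schwann cells at 3 days. In whole nerve it was at 0 in replicate 2 uncrushed and at 3 days, and in both libraries at 5 days. At 7 days it was at 0 in neither, so the collagen shares are uncertain. The fibroblast gene Thy1, whose protein was used for depletion, lay between 0.04 and 0.99 FPKM in Schwann cells. The 7 pericyte and smooth muscle markers summed to 26.7 to 32.0 FPKM in uncrushed Schwann cells and 4.07 to 18.4 FPKM in crushed ones, with at most 1 at 0 (Kcnj8). The 5 endothelial markers summed to 3.58 to 4.89 FPKM before and 0.92 to 3.79 FPKM after crush, with at most 2 at 0 (Pecam1 and Esam), and the 4 perineurial markers to 19.9 to 20.5 and 12.1 to 17.8 FPKM, with at most 2 at 0 (Msln and Lypd2). The 7 macrophage markers summed to 4.04 to 5.30 FPKM before and 2.58 to 12.7 FPKM after crush, with at most 1 at 0 (Cx3cr1). After crush, 2 of 9 tested fibroblast markers were lower in Schwann cells at 3 days by edgeR, 4 were lower and 1 higher at 5 days, and 1 was lower at 7 days, when 25.7%, 25.6% and 21.9% of all genes were lower. The marker with the widest fall was Col3a1, which encodes a fibrillar collagen. It went from 1023 and 1015 FPKM to 20.3 and 35.8 at 3 days. Its change in log2 was -5.12 then, -4.63 at 5 days and -3.28 at 7 days. Of 6 tested pericyte markers 2 (Tagln and Cspg4) were lower at each day, and of 3 endothelial markers 1 (Tek), shares near those of all genes or from few genes. The other tested endothelial markers, Cdh5 and Flt1, stood at 1.63 and 1.84 in log2 at 3 days and did not pass (adjusted p = 0.142 and 0.0555). Of 5 tested macrophage markers 1, Ptprc, was higher at 3 days, by 2.76 (adjusted p = 0.0186). Replicate 2 carried this value, as Ptprc was 0.16 and 0.07 FPKM uncrushed and 0.18 and 1.29 at 3 days. Cdh5 and Flt1 at 3 days were also higher in replicate 2, at 1.42 and 0.78 FPKM beside 0.13 and 0.18. Of 2 perineurial markers 1, Slc2a1, was lower at 5 and 7 days, at -0.65 and -0.47. In whole nerve the macrophage markers summed to 123 to 136 FPKM before crush and 323 to 561 FPKM after it, and 7 of 7 were higher at 3 and 5 days and 6 of 7 at 7 days. The part of any of these markers in the level of a member was not tested.

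**Figure D3:**
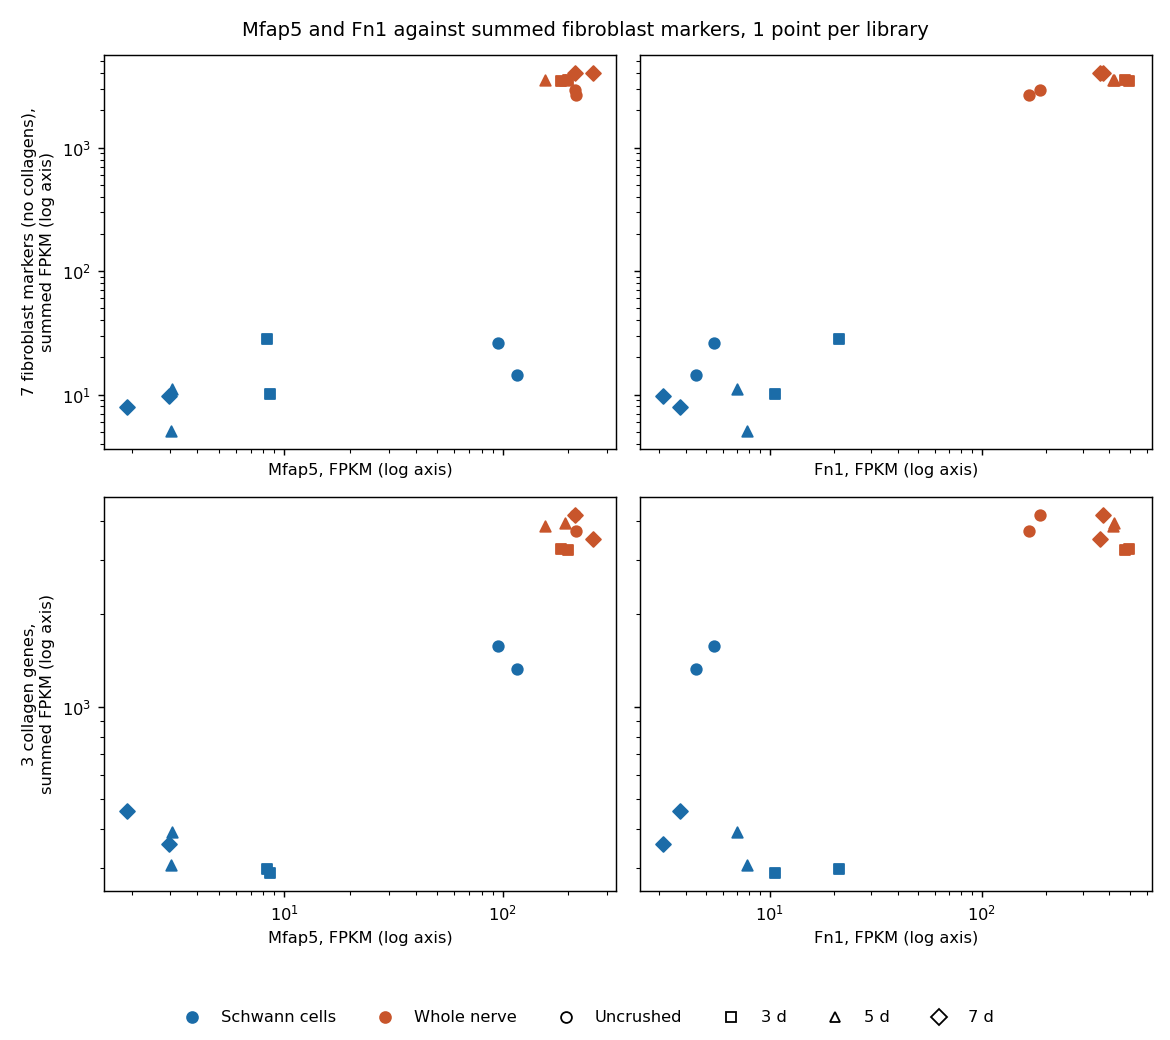
Summed FPKM of 7 fibroblast markers without the collagens (upper y axes, log) and of the 3 collagen genes (lower y axes, log) against the FPKM of Mfap5 and of Fn1 (x axes, log), with 1 point per library, colour for Schwann cells or whole nerve and shape for the time. With Mfap5 at 95.2 and 116 FPKM the uncrushed Schwann cell libraries stand at 14.3 to 26.4 on the upper axis and 1324 to 1574 on the lower one, and the crushed ones lie at 5.06 to 28.2 (5.06 to 11.2 without replicate 2 at 3 days) and 288 to 459.

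Crush was then compared with uncrushed nerve within each tissue. In Schwann cells 1 of 9 tested members rose and 3 fell at 3 days by edgeR, against 26.9% and 25.7% of all genes. At 5 days 1 rose and 3 fell, against 29% and 25.6% of all genes, and at 7 days 1 rose and 5 fell, against 25% and 21.9%. The count at 7 days went from 6 to 3 without replicate 2 of that day. In whole nerve 4 rose and 3 fell at 3 days, against 23.1% and 22.5% of all genes. There 4 rose and 1 fell at 5 days, against 18.9% and 19.5%, and 4 rose and 2 fell at 7 days, against 15.4% and 15.9%. The macrophage marker sum rose in whole nerve over the same days, as given above, and its part in these counts was not tested. The median log2 fold change of the 9 tested members at 3 days was -0.90 in Schwann cells and 0.22 in whole nerve, beside 0.00 in both for all genes tested. The 3 days after crush share the uncrushed libraries. A single-gene exact permutation test of 2 libraries against 2 cannot go below a p of 0.333, so the tests are those of the fit across all genes.

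Fibronectin RNA rose at 3 days in Schwann cells and in whole nerve. In Schwann cells Fn1 was 5.46 and 4.49 FPKM in the uncrushed libraries, 10.5 and 21.1 at 3 days, 7.01 and 7.80 at 5 days and 3.14 and 3.78 at 7 days. In whole nerve it was 168 and 188 FPKM in uncrushed libraries, 471 and 495 at 3 days, 421 and 414 at 5 days and 363 and 373 at 7 days. No groups next to each other in level overlapped, and both Schwann cell libraries at 3 days lay above all other Schwann cell libraries, but the pair differed from each other by 2.00-fold. The log2 fold change at 3 days was 1.74 in Schwann cells (SE 0.27, adjusted p = 0.00052 by edgeR) and 1.05 in whole nerve (SE 0.09, adjusted p = 4.73e-06). Without replicate 2, the Schwann cell library with more of other cells' markers, among them Ptprc, the change was 1.14 and still passed. In Schwann cells Fn1 then fell from 3 to 7 days by 2.30 on the log2 scale (SE 0.28, adjusted p = 0.000493), or by 1.68 without replicate 2 at 3 days (adjusted p = 0.000567), and in whole nerve it was above uncrushed at 5 days, by 0.83, and at 7 days, by 0.64, with adjusted p of 3.42e-05 and 0.000259. The Schwann cell values against uncrushed were 0.58 at 5 days and -0.55 at 7 days, which did not pass (adjusted p = 0.0979 and 0.132). Both passed with no filter (adjusted p = 0.000124 and 0.000524) and in the fit of the 4 libraries alone (adjusted p = 0.012 and 0.0182), and the value at 7 days with DESeq2 (adjusted p = 0.0393).

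Elastin RNA was low in Schwann cells and fell further after crush. Eln, the core protein of the fibre, was 1.13 and 0.98 FPKM in uncrushed Schwann cells, 0.07 and 0.51 at 3 days, 0.14 and 0.05 at 5 days and 0.15 and 0.10 at 7 days. The counts behind these values were 54 and 42, then 4 and 48, 9 and 3, and 9 and 4. All 6 crushed Schwann cell libraries lay below both uncrushed ones, as did their pericyte marker and fibroblast collagen sums. The Eln groups after crush overlapped each other. Of 6 tested pericyte markers only 2, Tagln and Cspg4, were lower by edgeR. The other 7 fibroblast markers summed to 28.2 FPKM in replicate 2 at 3 days, above both uncrushed libraries (26.4 and 14.3 FPKM). In the remaining crushed libraries this sum was 5.06 to 11.2 FPKM. The endothelial marker sum at 3 days was 0.92 FPKM in replicate 1 and 3.79 FPKM in replicate 2, the order of Eln, and the part of these cells in the values was not tested. The log2 fold change of Eln in Schwann cells was -3.40 at 5 days (SE 0.79, adjusted p = 0.00513) and -3.09 at 7 days (SE 0.78, adjusted p = 0.00946) in edgeR. At 3 days the log2 fold change was -1.69 (SE 0.68, adjusted p = 0.0604), and without replicate 2 it was -3.74 with an adjusted p of 0.00539. It also passed with library totals, with no filter and with all 16 libraries in the fit (adjusted p = 0.0462, 0.00263 and 0.00435). The value at 5 days was -4.28 without replicate 1 of that group. The call at 7 days was lost without replicate 2 of that group, at an adjusted p of 0.0587. In whole nerve Eln was 21.2 and 21.7 FPKM before crush, 20.3 and 18.8 at 3 days, 28.9 and 24.7 at 5 days and 23.9 and 23.6 at 7 days, and the groups did not overlap. On the TMM scale it fell by 0.54 at 3 days (SE 0.10, adjusted p = 0.00136), but with library totals the change was -0.13 and with all 16 libraries in the fit -0.47, and neither passed (adjusted p = 0.286 and 0.108). At 5 days the TMM value was -0.09 and the value with library totals 0.32, the latter with an adjusted p of 0.0195.

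Of the fibrillins, which form the microfibril, Fbn1 fell in Schwann cells and Fbn2 rose in whole nerve. Fbn1 was 36.3 and 29.5 FPKM in uncrushed Schwann cells, and at 3, 5 and 7 days it was 12.3 and 13.9, 14.7 and 12.2, and 14.3 and 13.9 FPKM. Every crushed library lay below both uncrushed ones and among the crushed groups those at 3 and 7 days were apart while that at 5 days overlapped both. The fibroblast collagen sum and the pericyte marker sum were lower in the same libraries. The other 7 fibroblast markers summed to 28.2 FPKM in replicate 2 at 3 days, above both uncrushed libraries (26.4 and 14.3 FPKM). In the remaining crushed libraries they summed to 5.06 to 11.2 FPKM. The part of any of these markers in the fall of Fbn1 was not tested. The log2 fold changes were -1.27 (SE 0.13, adjusted p = 3.43e-05), -1.31 (SE 0.13, adjusted p = 3.19e-05) and -1.26 (SE 0.13, adjusted p = 5.5e-05) at 3, 5 and 7 days by edgeR. In whole nerve Fbn1 was 99.7 and 79.5 FPKM before crush, 130 and 146 at 3 days, 137 and 122 at 5 days and 104 and 99.9 at 7 days. The TMM fold changes there, 0.22, 0.13 and -0.22, passed at none of the days (adjusted p = 0.154, 0.418 and 0.182), while library totals gave 0.63 and 0.53 at 3 and 5 days with adjusted p of 0.00112 and 0.00356. The value at 3 days also passed with no filter (adjusted p = 0.0393) and without replicate 1 of the uncrushed libraries, at 0.39 (adjusted p = 0.0237), and that at 7 days without replicate 2 of them, at -0.37 (adjusted p = 0.0394).

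Fbn2, the fibrillin made mostly in development, was 3.31 and 4.53 FPKM in uncrushed whole nerve, 12.2 and 13.4 at 3 days, 9.41 and 10.4 at 5 days and 6.66 and 7.96 at 7 days, and each group was apart from the next. The log2 fold changes were 1.31 (SE 0.14, adjusted p = 4.22e-05), 0.95 (SE 0.15, adjusted p = 0.000555) and 0.50 (SE 0.15, adjusted p = 0.0252) by edgeR. The call at 7 days was lost without replicate 1 of the uncrushed or replicate 2 of the crushed libraries, at adjusted p of 0.176 and 0.133, and in the fits of all 16 libraries (adjusted p = 0.076) and of the 4 libraries alone (adjusted p = 0.0685). In Schwann cells Fbn2 was 0.28 and 0.22 FPKM before crush and between 0.04 and 0.23 after it, from 4 to 53 counts. At 3 days its log2 fold change was -0.66, and -1.98 without replicate 2 (adjusted p = 0.0691). It fell by 2.42 at 7 days (SE 0.73, adjusted p = 0.0217), and each of 3 libraries left out in turn ended this call, with adjusted p up to 0.0981.

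Mfap5 was far lower after crush in Schwann cells and changed much less in whole nerve, which is the pattern for which it was chosen. It was 95.2 and 116 FPKM in uncrushed Schwann cells, 8.55 and 8.37 at 3 days, 3.05 and 3.03 at 5 days and 2.95 and 1.90 at 7 days. In whole nerve it was 216 and 213 FPKM before crush, 200 and 185 at 3 days, 192 and 157 at 5 days and 258 and 214 at 7 days. The Schwann cell groups were all apart from each other and lower at each later day. Whole nerve lay below both its uncrushed libraries at 3 and 5 days and overlapped them at 7 days. The log2 fold changes were -3.57, -5.16 and -5.35 in Schwann cells and -0.56, -0.72 and -0.27 in whole nerve, where library totals gave -0.15, -0.31 and 0.14. The Schwann cell changes minus those of whole nerve were -3.12, -4.57 and -5.18. Leaving out any 1 library kept the Schwann cell value at 3 days between -3.73 and -3.43 and at 7 days between -5.72 and -5.10.

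Mfap4, whose product binds elastin and microfibrils, rose in Schwann cells after 3 days. It was 1.06 and 0.80 FPKM in uncrushed Schwann cells, 0.39 and 0.52 at 3 days, 2.39 and 2.34 at 5 days and 2.78 and 3.71 at 7 days. The 4 groups were apart in this order, lowest at 3 days and highest at 7. Its counts were 19.3 and 13 in uncrushed Schwann cells and 8 and 18.5 at 3 days. Mfap4 had fractional counts in 12 libraries, so it shared reads with another gene and its values are uncertain. It was higher than uncrushed by 1.33 in log2 at 5 days (SE 0.36, adjusted p = 0.0102) and by 1.76 at 7 days (SE 0.35, adjusted p = 0.00284) by edgeR, and the first of these was lost without replicate 2 of the uncrushed cells, at an adjusted p of 0.0625. At 3 days the value was -0.90 (SE 0.40, adjusted p = 0.0817), and it passed with all 16 libraries in the fit (adjusted p = 0.0332). In whole nerve it was 57.7 and 52.0 FPKM before crush, 53.9 and 46.3 at 3 days, 70.8 and 57.1 at 5 days and 64.6 and 66.0 at 7 days, with overlap between neighbouring groups. The fall by 0.54 there at 3 days (SE 0.12, adjusted p = 0.00446) was -0.13 with library totals, at an adjusted p of 0.38, and did not pass without replicate 2 of whole nerve at 3 days, at an adjusted p of 0.0575.

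Among the fibulins, Fbln5, which tethers elastin to cells and to crosslinking enzymes, showed a dip and return in Schwann cells. It was 9.24 and 11.0 FPKM in uncrushed Schwann cells, 0.58 and 1.10 at 3 days, 8.26 and 9.23 at 5 days and 17.4 and 12.5 at 7 days. Both libraries at 3 days lay far below the other 6, and those at 7 days lay above them all. It fell by 3.49 at 3 days (SE 0.28, adjusted p = 5.54e-06) in edgeR, and the value was -4.10 without replicate 2 of that group. From 3 to 7 days the log2 fold change was 3.9985 (SE 0.28, adjusted p = 2.23e-05), and 4.62 without that library. At 5 and 7 days its log2 fold changes against uncrushed were -0.26 and 0.51, with adjusted p of 0.349 and 0.0921. The value at 7 days ran from 0.24 without replicate 1 to 0.74 without replicate 2 of that group, and it passed without replicate 2 (adjusted p = 0.0428), with all 16 libraries in the fit (adjusted p = 0.0352) and with no filter (adjusted p = 0.00937). In whole nerve Fbln5 went from 29.1 and 28.4 FPKM to 65.0 and 66.3 at 3 days, 57.3 and 60.3 at 5 days and 57.7 and 65.0 at 7 days, and all crushed libraries lay above the uncrushed ones. The log2 fold changes in whole nerve were 0.78 (SE 0.09, adjusted p = 4.22e-05), 0.63 (SE 0.09, adjusted p = 0.000281) and 0.69 (SE 0.09, adjusted p = 0.000191).

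Fbln2, a fibulin of basement membranes and microfibrils, fell in Schwann cells and in whole nerve. It was 8.32 and 6.54 FPKM in uncrushed Schwann cells, 3.29 and 2.97 at 3 days, 6.22 and 6.12 at 5 days and 5.83 and 5.35 at 7 days, with the 4 groups apart. The log2 fold change was -1.19 at 3 days (SE 0.14, adjusted p = 6.67e-05) and -0.46 at 7 days (SE 0.13, adjusted p = 0.0193) by edgeR, the latter lost without replicate 1 of the uncrushed cells or replicate 2 of those at 7 days (adjusted p = 0.138 and 0.113). At 5 days it was -0.29 with an adjusted p of 0.0916, and it passed with upper quartile scaling, with all 16 libraries in the fit and without replicate 2 of the uncrushed cells (adjusted p = 0.0485, 0.0412 and 0.0292). Whole nerve went from 14.7 and 14.7 FPKM to 9.73 and 10.9, 10.3 and 8.90, and 11.9 and 11.2 FPKM at 3, 5 and 7 days, all below uncrushed. Its changes there were -0.92 (SE 0.10, adjusted p = 4.81e-05), -1.02 (SE 0.10, adjusted p = 3.27e-05) and -0.75 (SE 0.10, adjusted p = 0.000365).

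Fbln1, the fibulin that binds fibronectin, rose in whole nerve. It was 3.85 and 4.25 FPKM before crush, 12.5 and 11.3 at 3 days, 9.70 and 6.35 at 5 days and 9.58 and 9.78 at 7 days, and every crushed library exceeded both uncrushed ones. The log2 fold changes were 1.18 (SE 0.18, adjusted p = 0.00045), 0.60 (SE 0.19, adjusted p = 0.0278) and 0.85 (SE 0.19, adjusted p = 0.0057) by edgeR. At 5 days the value was 0.32 without replicate 1 of that group (adjusted p = 0.222) and 0.50 without replicate 1 of the uncrushed group (adjusted p = 0.14), and the fit of the 4 libraries alone did not pass (adjusted p = 0.0629). In Schwann cells Fbln1 lay between 0.39 and 1.30 FPKM, with changes of 0.90, 0.85 and 0.39 that did not pass (adjusted p = 0.0933, 0.111 and 0.485). They depended on the uncrushed libraries, at 0.39 and 0.75 FPKM. The value at 3 days was 1.49 without replicate 1 of these and 0.47 without replicate 2, and it passed in the first case (adjusted p = 0.0468) and with all 16 libraries in the fit (adjusted p = 0.0379). At 5 days the same omissions gave 1.44 and 0.43, at 7 days 0.98 and -0.0285, and none of these passed.

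Lox, the enzyme that crosslinks elastin and collagen, fell in Schwann cells after 3 days. It was 1.69 and 1.48 FPKM in uncrushed Schwann cells, 1.13 and 1.92 at 3 days, 0.52 and 0.73 at 5 days and 0.75 and 0.51 at 7 days. The libraries at 3 days spanned the uncrushed ones, and those at 5 and 7 days lay below both groups. The log2 fold changes at 5 and 7 days were -1.37 (SE 0.32, adjusted p = 0.00542) and -1.35 (SE 0.33, adjusted p = 0.00735) by edgeR, and the second was not called without replicate 2 at 7 days, at an adjusted p of 0.0511. At 3 days it was 0.02 (adjusted p = 0.965) and -0.44 without replicate 2. In whole nerve Lox was 57.3 and 61.6 FPKM before crush, 68.0 and 69.1 at 3 days, 70.9 and 67.8 at 5 days and 56.6 and 66.6 at 7 days. The fall by 0.36 there at 7 days on the TMM scale (SE 0.09, adjusted p = 0.0149) turned to 0.05 with library totals (adjusted p = 0.689). It was lost without replicate 2 of the uncrushed or replicate 1 of the crushed libraries, at adjusted p of 0.0858 and 0.128, and in the fits of all 16 libraries (adjusted p = 0.255) and of the 4 libraries alone (adjusted p = 0.0568).

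**Figure D4:**
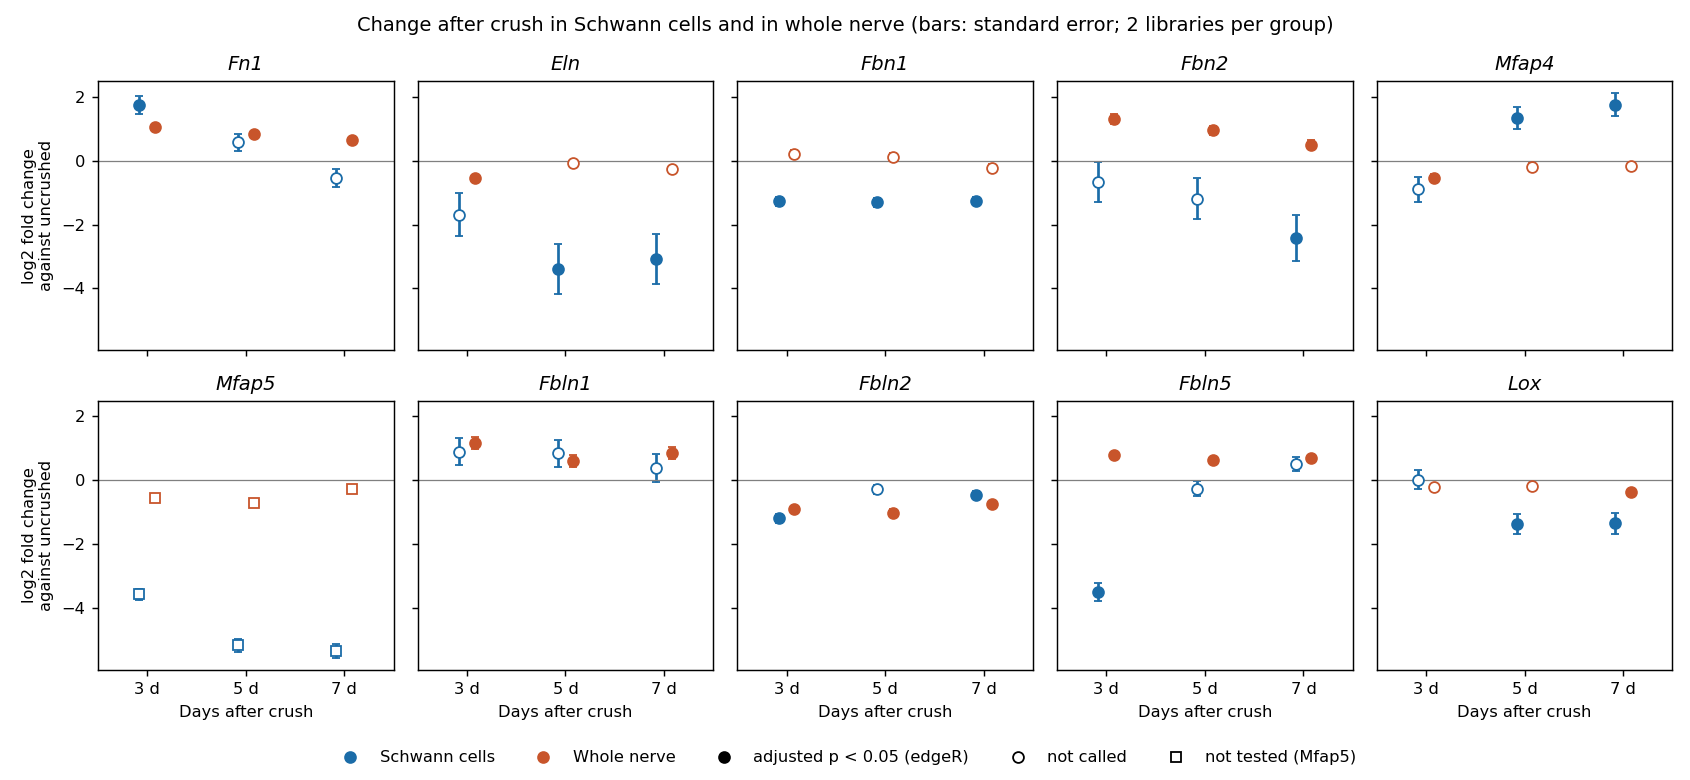
Log2 fold change against uncrushed nerve (TMM, edgeR) of each member at 3, 5 and 7 days, for Schwann cells and for whole nerve, with standard errors. Mfap5 reaches -5.35 in Schwann cells and no lower than -0.72 in whole nerve, Fbln5 is at -3.49 and 0.78 at 3 days, and Fn1 is above 0 in both at 3 days.

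Between 3 and 7 days 5 of 9 tested members changed in Schwann cells, against 21% of all genes. Fbln5, Mfap4 and Fbln2 rose and Fn1 and Lox fell, by edgeR, and without replicate 2 at 3 days 3 calls were left, Fbln2 and Lox being lost (adjusted p = 0.0549 and 0.143). Library totals moved the split over all genes from 1532 higher and 1608 lower to 1934 and 1162. In whole nerve 4 of 9 changed, against 21.2% of all genes. Mfap4 rose by 0.38 there and Fbn2, Fbn1 and Fn1 fell by 0.81, 0.44 and 0.40. Leaving out any 1 of the 4 whole nerve libraries left 1 or 2 calls, and Mfap4 and Fbn1 were lost in each case.

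The difference between the injury effects was tested in the fit of all 16 libraries as the change in Schwann cells minus the change in whole nerve. At 3 days it passed for 3 of 9 tested members, against 26% of all genes, at 5 days for 7, against 27.5%, and at 7 days for 6, against 26%. At 3 days Fbln5 differed by -4.36 in log2 (SE 0.28, adjusted p = 8.92e-08), Fbn2 by -1.97 (SE 0.50, adjusted p = 0.00931) and Fbn1 by -1.59 (SE 0.19, adjusted p = 2.65e-05). Without replicate 2 of Schwann cells at 3 days Fbln5 differed by -4.99 and Fbn2 by -3.40, and Eln went from -1.13 (adjusted p = 0.0884) to -3.31 (adjusted p = 0.000219). The difference between the Fn1 rises at 3 days did not pass, at 0.59 (SE 0.31, adjusted p = 0.184), and this value was -0.02 without replicate 2 of Schwann cells and 1.014 without replicate 1, where it passed at an adjusted p of 0.000775. At 5 and 7 days the change was lower in Schwann cells for Eln, Fbn1, Fbn2 and Lox and higher for Mfap4, at 1.40 and 1.78, and Fbln5 was lower at 5 days. Fbln2 was higher by 0.60 at 5 days, which library totals brought to 0.34 (adjusted p = 0.176), and Fn1 was lower by 1.31 at 7 days. For 3 days the test with library totals called 5 members, and the split over all genes there moved from 2076 higher and 2300 lower to 1078 and 4457. At 5 and 7 days that split moved from 2120 and 2513 to 1263 and 3815, and from 1950 and 2424 to 1147 and 3793.

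Over the 8 Schwann cell libraries the Pearson correlation of log2 CPM (counts scaled to the library) was 0.92 for Fbn1 with Mfap5 and 0.89 for Fbn1 with Eln, but -0.84 for Fn1 with Fbln5. Over the 8 whole nerve libraries Fn1 correlated with Fbln5 at 0.95 and with Fbn2 at 0.95, and with Fbln2 at -0.95. These values are descriptions over libraries that share their groups and scaling.

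Other genes of the fibre and of fibronectin adhesion were counted from 5 lists. Of all genes 26.9% rose and 25.7% fell in Schwann cells at 3 days, and 23.1% rose and 22.5% fell in whole nerve. In Schwann cells at 3 days, 4 of 15 tested microfibril partners rose and 4 fell, with a median log2 fold change of -0.16, and in whole nerve 2 of 17 rose and 9 fell, with a median of -0.49. Ltbp1, a latent TGF-beta binding protein that sits on fibrillin, was 0.62 and 0.71 FPKM in uncrushed Schwann cells and 36.0 and 37.7 at 3 days, a log2 fold change of 5.84 (SE 0.28, adjusted p = 2.12e-07 by edgeR). Adamts17, a protease of microfibrils, went from 56.3 and 53.0 FPKM to 0.61 and 0.54, a log2 fold change of -6.52 (SE 0.17, adjusted p = 4.09e-08). In whole nerve Emilin1, an elastin microfibril interface protein, rose by 0.88 (SE 0.26, adjusted p = 0.0193), and Adamtsl2 went from 36 and 11 counts to 1 and 2, at least 14.3-fold lower on the TMM scale against a floor of 3 counts per library.

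Of 4 other fibulins and hemicentins tested in Schwann cells, 2 rose and 1 fell at 3 days, and of 5 in whole nerve 2 rose and none fell, beside 26.9% and 25.7% of all genes in Schwann cells and 23.1% and 22.5% in whole nerve. Hmcn1, a large basement membrane fibulin, went from 1.09 and 1.11 FPKM to 8.83 and 8.60 in Schwann cells, and Fbln7 from 3.39 and 3.11 to 0.14 and 0.28. Their log2 fold changes were 3.04 and -3.78. Efemp1 and Efemp2, which encode fibulin-3 and fibulin-4, rose in whole nerve by 0.64 and 0.56. Of 10 crosslinking and processing enzymes tested in Schwann cells 3 rose and 4 fell, with a median of -0.39, and of 9 in whole nerve 3 rose and 2 fell, with a median of 0.14, beside the same shares of all genes. Loxl1, the lysyl oxidase of elastic fibres, went from 0.88 and 0.67 FPKM to 15.1 and 12.8 in Schwann cells, while Lox itself was 1.13 and 1.92 there. Its log2 fold change was 4.21 (SE 0.20, adjusted p = 1.95e-07 by edgeR), and in whole nerve it was 0.64. Tll1, a procollagen protease, fell by 2.64 in Schwann cells and by 1.63 in whole nerve.

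Among 11 fibronectin receptors and partners 7 rose and 3 fell in Schwann cells at 3 days, with a median log2 fold change of 1.39, and in whole nerve 5 rose and 1 fell, with a median of 0.33. The shares of all genes were 26.9% and 25.7% in Schwann cells and 23.1% and 22.5% in whole nerve. The summed FPKM of the 11 genes fell in Schwann cells, from 893 and 761 in uncrushed libraries to 658 and 647 at 3 days. In whole nerve the sum went from 208 and 216 to 369 and 392. Tnc, the matrix protein tenascin-C that binds fibronectin, went from 7.67 and 5.79 FPKM to 134 and 112 in Schwann cells and from 2.48 and 3.58 to 23.0 and 26.6 in whole nerve, with log2 fold changes of 4.30 and 2.74. Itgb3, the integrin beta 3 subunit, fell by 1.86 in Schwann cells, and Npnt, the integrin ligand nephronectin, fell by 0.75 in whole nerve. Of the elastolytic enzymes and the elastin receptor, 4 of 8 tested rose and 1 fell in Schwann cells and 4 of 10 rose and 1 fell in whole nerve, beside those same shares. Ctsa, the protective protein of the elastin receptor complex, rose by 1.93 and Mmp2, a gelatinase, fell by 1.06 in Schwann cells. In whole nerve Mmp9, another gelatinase, was at 0 counts in both uncrushed libraries and at 35 and 29 counts at 3 days, at least 5.26-fold higher on the TMM scale against the same floor, and Ctsk, the protease cathepsin K, fell by 0.70. No fall named from these lists in whole nerve was smaller than the 0.41 by which library totals moved the median of all genes.

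**Figure D5:**
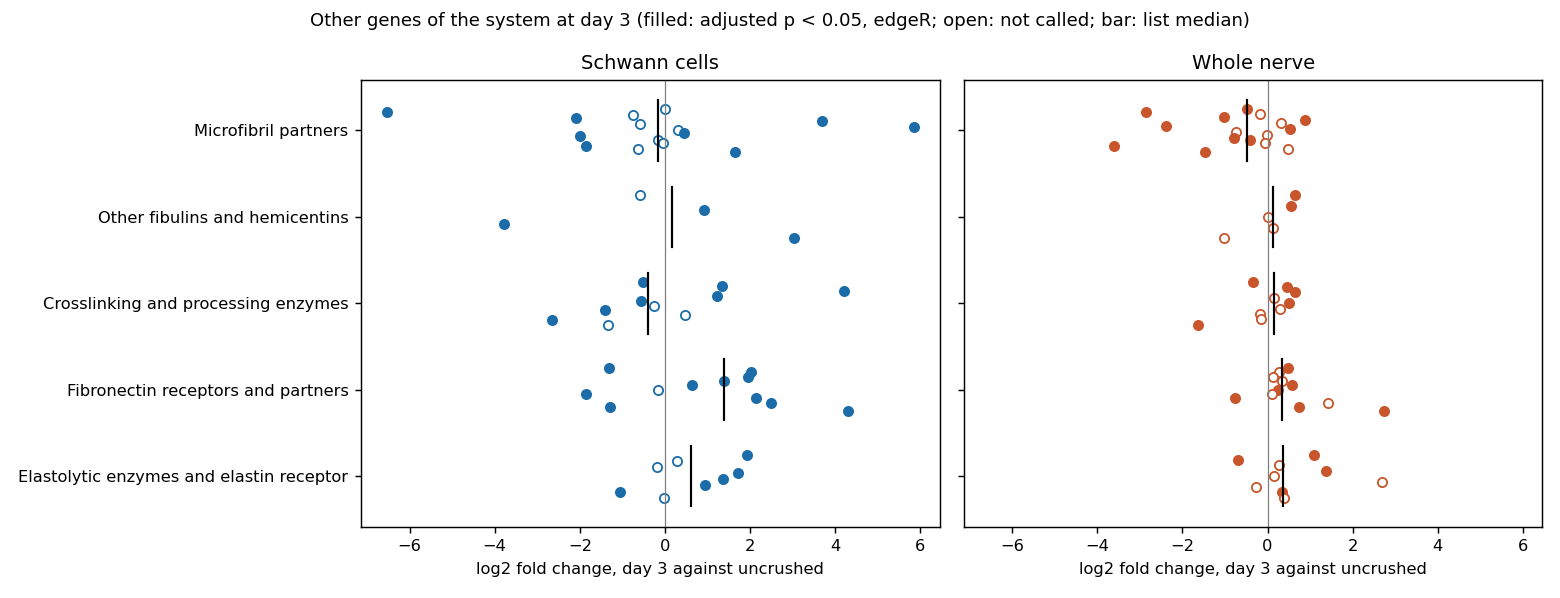
Log2 fold change at 3 days against uncrushed nerve (x axis) of each tested gene of the 5 lists (y axis) in Schwann cells and in whole nerve, filled where the adjusted p of edgeR was under 0.05, with a bar at the list's median. Genes at or under the floor of 3 counts in a group (Mmp9 and Adamtsl2 in whole nerve) are not drawn, Ltbp1 at 5.84 and Adamts17 at -6.52 lie at the edges in Schwann cells, and the fibronectin receptors and partners have a median of 1.39 there.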

How the data were processed

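RNA was measured in 16 libraries, 2 in each of 8 groups taken from the labels. Reads were aligned by the authors with STAR against the build Rnor_6.0, and RSEM gave the deposited expected counts, FPKM and TPM of 31038 genes. The expected counts carry no normalization by the authors. FPKM, scaled by the authors to gene length and library, is used here for levels, and the deposited TPM as an alternative scale. The authors' matrix of the same counts was checked against the library files and did not differ. A table of the authors with FPKM from Cufflinks and network modules was not used, and 0 columns of values per sample went unused.

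Rounded expected counts were filtered with filterByExpr, scaled by TMM and tested by quasi-likelihood in edgeR 4.0.16 (R 4.3.3), with Benjamini-Hochberg adjustment over all genes tested at 0.05. Separate fits of 8 libraries gave the crush effects in Schwann cells and whole nerve, and a fit of 16 gave tissue differences and the difference of crush effects. A standard error is the absolute log2 fold change over the square root of F. Correlations used log2 CPM with a prior count of 2. Alternatives were DESeq2 1.42.0, other scalings, no filter, a replicate block, other sets of libraries in the fit and leaving out each library. Library totals as a scaling was added after the data were seen.

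The members and all gene lists were chosen with earlier results of these data known. The naming rule takes all members, the called genes with the largest and smallest change at 3 days of each list in each tissue, the 5 genes closest in pattern to Mfap5 and to Eln, and marker genes where a member's result needs them. Promoters and gene records came from RefSeq tables of GRCr8, where lncRNA genes overlap Eln, Fbn1, Fbn2 and Fbln1 and a pseudogene lies in Lox, and reads of these may be shared. Library totals of 10555067 to 27562637 limit the precision of members with few counts.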

Additional observations from a re-analysis of the deposited data

Results flagged for a closer look

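Each value here is a log2 change after crush in Schwann cells minus that in whole nerve for which the test of the difference itself passed in edgeR, over 2 libraries in each of the 4 groups involved. At 3 days these were Fbln5 at -4.36, Fbn2 at -1.97 and Fbn1 at -1.59. At 5 days they were Eln at -3.43, Fbn2 at -2.25, Fbn1 at -1.56, Lox at -1.32, Fbln5 at -1.01, Mfap4 at 1.40 and Fbln2 at 0.60. At 7 days they were Fbn2 at -3.03, Eln at -2.93, Fn1 at -1.31, Fbn1 at -1.16, Lox at -1.10 and Mfap4 at 1.78. Without replicate 2 of Schwann cells at 3 days Fbln5 was -4.99 and Fbn2 -3.40 there, and without replicate 1 of Schwann cells at 5 days Eln was -4.32 and Fbn2 -3.03 at 5 days. The 3 days share the uncrushed libraries and are not independent of each other. For Fbln5 at 3 days the Schwann cell level fell while that of whole nerve rose, and both changes passed their own test. The counts of Eln and Fbn2 in crushed Schwann cells were between 3 and 53 per library, and those of Mfap4 were in part shared with another gene. Fbn2 at 3 days was lost without replicate 1 of uncrushed Schwann cells, Lox at 7 days without that library or replicate 2 at 7 days, and Fbln2 at 5 days without replicate 2 of uncrushed Schwann cells or of whole nerve at 5 days.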

How the results depend on the processing

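Of 135 member values with a test, 93 were called, 92 of these kept their direction in all alternatives run and 75 were lost in none. Of the 42 not called, 16 were called in at least 1 alternative. The count of 4 called members in Schwann cells at 3 days was 7 with all 16 libraries in the fit, and the 3 calls for the difference of injury effects at 3 days were 5 with library totals and 5 with no filter. Leaving out 1 library gave 3 to 6 calls in Schwann cells at 7 days (3 without replicate 2 of that day), 3 to 6 for 7 against 3 days in Schwann cells (3 without replicate 2 at 3 days) and 1 to 2 for the same days in whole nerve, whichever library was left out. The replicate numbers did not pair the samples: deviations of same-numbered libraries correlated between -0.06 and 0.08 over 28 pairs of groups, and the replicate block changed no call and turned only Lox in Schwann cells at 3 days, from 0.02 to -0.009.

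With TPM in place of FPKM, 16 of 20 ratios of member levels at 3 days to uncrushed moved by less than the replicate SD, and Fbn1, Mfap4, Mfap5 and Fbln2 in Schwann cells moved more, to -1.54, -1.23, -3.84 and -1.45 in log2.

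The following values changed sign. The value of Eln for 7 against 3 days in Schwann cells, -1.40, became 0.65 without replicate 2 at 3 days. Lox in Schwann cells at 3 days was -0.0194 with DESeq2, -0.0203 with RLE, -0.0604 with upper quartile, -0.0427 with library totals and -0.44 to 0.32 leaving out 1 library. For 7 against 3 days in Schwann cells Fbn1 was -0.0045 with DESeq2, -0.004 with RLE and -0.0703 to 0.12 leaving out 1 library, and Eln -2.11 to 0.65. Fbln1 in Schwann cells at 7 days was -0.0285 to 0.98 leaving out 1 library. In whole nerve library totals gave 0.21 for Lox at 3 days, 0.32, 0.21 and 0.22 for Eln, Mfap4 and Lox at 5 days and 0.15, 0.19, 0.25, 0.14 and 0.0512 for Eln, Fbn1, Mfap4, Mfap5 and Lox at 7 days. Eln at 5 days was 0.0127 with all 16 libraries and -0.19 to 0.0289 leaving out 1 library, and Fbn1 -0.0193 to 0.30. For the difference of injury effects library totals gave -0.23 for Lox at 3 days, -0.15 for Fbln1 at 5 days and -0.0844 for Fbln2 at 7 days. Leaving out 1 library gave there -0.0184 to 1.01 for Fn1, -0.78 to 0.21 for Fbln1 and -0.35 to 0.44 for Lox at 3 days, and -0.28 to 0.72 and -0.99 to 0.0065 for Fbln1 at 5 and 7 days. The library totals values move with the shift of the median of all genes. The cause of the other turns was not tested.

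With 2 libraries per group, Eln, Fbn2 and Fbln1, which had few counts in Schwann cells, have the widest standard errors. A change there that did not pass is not shown to be absent. Mfap4 also had few counts there, at 19.3 and 13 in the uncrushed libraries. Age at collection rises with time after crush, so that growth and injury cannot be told apart between days. A dissociated nerve control that the study describes was not analysed here, and in these 16 libraries cell type and dissociation cannot be told apart.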

Other observations

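Genes whose pattern over the 16 libraries was most like that of Mfap5 and of Eln were sought among 16829 genes by the Pearson correlation of log2 CPM, with the members left out. The points share the split between Schwann cells and whole nerve, and no test was made. Closest to Mfap5 were Clec2g at 0.991, Gpc4 at 0.988, Apcdd1 at 0.987, Macf1 at 0.987 and Rgl1 at 0.987. Gpc4, which encodes the heparan sulfate proteoglycan glypican-4, stood at log2 values of 4.58 and 4.53 in uncrushed Schwann cells, 2.67 and 3.23 at 3 days, 2.02 and 2.11 at 5 days and 1.84 and 1.76 at 7 days, while whole nerve lay between 5.35 and 5.75. Closest to Eln were Tinagl1 at 0.996, Kdr at 0.995, Abca6 at 0.993, Plac9 at 0.993 and C1qtnf2 at 0.992. Kdr, which encodes the VEGF receptor of endothelial cells, stood at log2 values of 2.75 and 2.75 in uncrushed Schwann cells, 0.59 and 2.05 at 3 days, 0.70 and 0.73 at 5 days and 1.24 and 1.02 at 7 days, with whole nerve between 5.48 and 6.24. For both Kdr and Eln the higher Schwann cell library at 3 days was replicate 2.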
